A study of Mus musculus with 2 samples.

Results

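The cyclic nucleotide phosphodiesterases are the enzymes that break down cAMP and cGMP. Their transcripts were followed here in brown fat and in cultured brown adipocytes of mice without PKGI, a kinase that cGMP activates and that Prkg1 encodes. The 10 genes are Pde1a, Pde1b, Pde2a, Pde3a, Pde3b, Pde4a, Pde4b, Pde4d, Pde8a and Pde9a. Their probes were found by gene name among the 27962 gene names on the array. Together they have 24 probes of 41174, each with 1 spot per array.

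The data are 2 two-colour microarrays, both of PKGI knockout (KO) over wild type (WT) RNA of mice on the C57BL/6N background. On the tissue array, untreated brown adipose tissue came from a PKGI-/- mouse (Cy5) and from its WT littermate (Cy3). On the culture array, brown adipocytes had been grown and differentiated in vitro from precursor cells of a PKGI-/- mouse (Cy3) and of its WT littermate (Cy5). The labels give no age, sex or form of the deleted allele. There was 1 array per comparison and no dye swap, so no test was possible and no p-value is given. A difference between genotypes cannot be told apart from one between 2 animals or cultures, or from a dye bias of a single probe. As these are RNA pools of many cells, fewer cells of a type and less RNA per cell cannot be told apart either.

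Noradrenaline acts on brown adipocytes through cAMP, which drives lipolysis and heat production. Nitric oxide and natriuretic peptides raise cGMP, which activates PKGI. Phosphodiesterases set how long both signals last, and the families differ in what they cleave and in what controls them. PDE1 enzymes are switched on by calcium and calmodulin and cleave both nucleotides. PDE2 cleaves both and is stimulated by cGMP, while PDE3 prefers cAMP and is held back by cGMP. PDE4 and PDE8 are specific for cAMP, and PDE9 for cGMP.

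The starts of Pde1b are shown first, since Pde1b was 1 of the 2 genes that differed at least 2-fold between genotypes and the one of them with start sites in the table used. RefSeq annotates 3 starts on the plus strand of chromosome 15 in GRCm38.p6, and each window runs from 250 bases before a start to 50 after it. Capitals mark the GC box letters GGGCGG, searched on both strands.
Pde1b start 1, chr15:103502784-103503083: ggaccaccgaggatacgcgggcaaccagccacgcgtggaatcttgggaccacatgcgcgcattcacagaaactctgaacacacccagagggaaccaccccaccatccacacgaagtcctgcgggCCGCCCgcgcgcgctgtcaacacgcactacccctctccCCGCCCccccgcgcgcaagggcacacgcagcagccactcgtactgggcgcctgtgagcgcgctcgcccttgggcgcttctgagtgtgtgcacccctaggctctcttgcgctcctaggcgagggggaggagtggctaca
Pde1b start 2, chr15:103506876-103507175: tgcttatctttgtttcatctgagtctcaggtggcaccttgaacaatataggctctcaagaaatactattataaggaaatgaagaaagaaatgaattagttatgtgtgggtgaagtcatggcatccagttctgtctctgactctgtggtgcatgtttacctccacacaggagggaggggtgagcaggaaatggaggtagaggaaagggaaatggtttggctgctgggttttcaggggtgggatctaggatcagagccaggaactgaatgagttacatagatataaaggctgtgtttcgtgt
Pde1b start 3, chr15:103514727-103515026: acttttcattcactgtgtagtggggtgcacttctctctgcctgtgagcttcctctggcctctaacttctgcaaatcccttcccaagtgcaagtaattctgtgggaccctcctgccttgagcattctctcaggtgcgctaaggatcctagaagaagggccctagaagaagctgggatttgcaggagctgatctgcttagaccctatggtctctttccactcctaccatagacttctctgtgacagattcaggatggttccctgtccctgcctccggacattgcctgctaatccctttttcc
The first window holds 2 GC boxes and is 67.0% G and C. The other windows hold none and are 44.0% and 51.0% G and C. Over all 32851 RefSeq windows of this length, 35.7% held a GC box. The cAMP response element letters TGACGTCA and the letters TGACG and AGGTCA were in none of the 3 windows, and were in 1.79%, 20.8% and 16.3% of all windows. Over the 21 windows of the 7 genes listed (none for Pde3a, Pde3b or Pde9a), TGACGTCA was in 0, TGACG in 5, AGGTCA in 3 and the GC box in 5. Which start was used in these samples is not measured by the Pde1b probe, and a missing match says only that the letters are not in these windows.

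All 4 RNA samples were checked against the labels. The Prkg1 probe for NM_011160 had a level of 7.11 in KO tissue, against 8.40 in WT tissue, and 6.80 in KO cultures, against 7.74 in WT cultures (normalised log2 intensity, as for all levels here). The Prkg1 probe for AK052877 was also lower in KO on both arrays, by 2.33-fold in tissue and 4.97-fold in culture. Both probes were still well above background in KO on both arrays. Another kept Prkg1 probe, for AK040353, was dim and not lower in KO, with log2 ratios of 0.01 in tissue and 0.17 in culture. The labels do not say whether these probes lie in the deleted stretch. The share of gene spots clearly above background was 74.1% in KO tissue, against 63.1% in WT tissue, and 68.1% in KO cultures, against 70.1% in WT cultures. Brown fat's defining gene Ucp1 was at 15.62 in KO tissue and 17.46 in WT tissue, and at 7.20 in KO cultures and 10.99 in WT cultures. Markers of other cells differed too, as given beside the results below. Sex-linked transcripts also differed: Xist (probe for L04961, A_51_P145453) was at 15.39 in KO tissue, against 7.67 in WT tissue, and at 6.84 in KO cultures, against 12.10 in WT cultures. The Y-linked Eif2s3y was not well above background in KO tissue, at 6.33, against 12.74 in WT tissue, and was at 12.28 in KO cultures and 12.39 in WT cultures. High Xist without Eif2s3y in KO tissue, and low Xist with high Eif2s3y in WT tissue, is the pattern of a female KO and a male WT. Genotype and sex thus cannot be told apart on the tissue array. The WT culture had high levels of both Xist and a Y-linked transcript. The part of these differences in the phosphodiesterase values was not tested.

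In tissue, no probe of the 10 genes reached a 2-fold difference between genotypes. Of the 24 probes, 21 were kept, because 2 were not well above background in either channel and 1 spot carried an outlier flag. Of these 21, 0 were at least 2-fold higher in KO, where 0.926% of all 30011 kept probes were, and 0 were at least 2-fold lower, where 2.44% were. The log2 ratios of KO over WT ran from -0.36 to 0.90 with a median of 0.01, against 0.02 over all kept probes, and 19 lay within 0.5 of 0. Signs were mixed, with 11 probes above 0 and 10 below. For scale, repeated spots of 245 other probes varied with a pooled SD of 0.107 on this array, and probes of the same gene with a median SD of 0.15.

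In culture, 2 probes of the 10 genes were lower in KO by 2-fold or more and their other kept probes stayed within 0.5 of 0 on the log2 scale. The 2 are the single probe of Pde1b and the one RefSeq probe of Pde3b. Of 20 kept probes they are the only ones lower by 2-fold, a call that 3.89% of all 29161 kept probes met, and 0 were at least 2-fold higher, where 2.07% were. With so few probes, a count of 2 is not set apart from the other transcripts of the array. Ratios ran from -1.36 to 0.40, with 12 above 0, 8 below, and a median of 0.09 against -0.02 over all kept probes. Repeated spots had a pooled SD of 0.10 here.

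**Figure D1:**
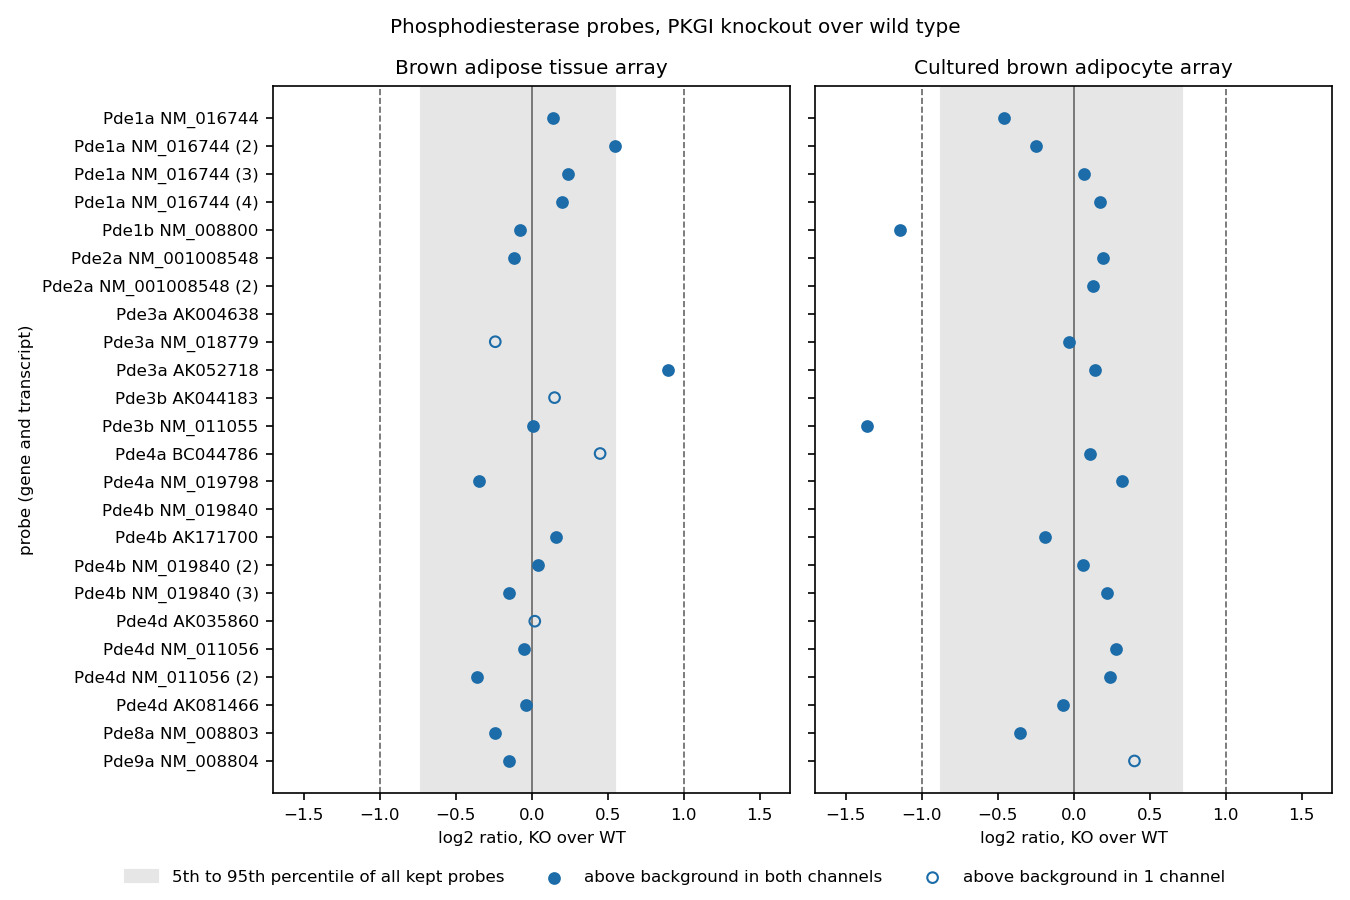
Log2 ratio of KO over WT (horizontal axis) of each of the 24 phosphodiesterase probes (rows) on the tissue array (left) and the culture array (right), 1 spot each with no error bars. Filled points were well above background in both channels and open points in 1, dashed lines mark 2-fold, and the grey band holds the 5th to 95th percentile of all kept probes. In culture only Pde3b (-1.36) and Pde1b (-1.14) lie past 2-fold, and in tissue the probe closest to it is Pde3a AK052718 (0.90).

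Among the dual-specificity enzymes, Pde1b was the one that differed between genotypes in culture. PDE1B is known best from the brain and from macrophages. The Pde1b probe (NM_008800, chr15:103518744-103518803 in the array files, of unstated build) had levels of 9.18 in KO cultures and 10.32 in WT cultures, and of 10.18 in KO tissue and 10.26 in WT tissue. The KO culture thus stood apart from the other 3 samples, which were within 0.14 of each other. It was 2.20-fold lower in KO cultures (log2 -1.14), and the scanner software's own ratio was -1.18 with an error of 0.23 from its error model. In tissue the log2 ratio was -0.08, below the spread of repeated spots.

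The 4 probes of Pde1a, the other PDE1 gene measured in all samples, gave no common direction in culture. In tissue all 4 were higher in KO, by 0.14 to 0.55 on the log2 scale, except with the spiked-in controls as the zero, where all 4 were below 0 (-0.29 to -0.70). The 0.55 belonged to A_51_P327016, with levels of 11.56 in KO tissue and 11.01 in WT tissue. That probe's coordinates span 26096 bases of chromosome 2, more than its length of 60, so it crosses at least 1 exon junction. In culture its levels were 9.70 in KO and 9.95 in WT. The probe nearest the 3′ end, A_52_P526565, was at 9.74 in KO cultures and 10.20 in WT cultures (log2 -0.46), and the remaining 2 probes had ratios of 0.07 and 0.17. The mean over the 4 probes was 0.28 in tissue and -0.12 in culture.

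Pde2a, the enzyme through which cGMP can speed the breakdown of cAMP, differed little between genotypes. Its probe A_52_P502828 was at 8.69 in KO tissue and 8.81 in WT tissue, and at 6.83 in KO cultures and 6.64 in WT cultures. The second probe, A_51_P120024, was flagged on the tissue array and left out there, with processed intensities of 2610 in KO and 2540 in WT. In culture it was at 7.12 in KO and 6.99 in WT. All 3 usable ratios lay between -0.12 and 0.19, near the SD of 0.128 in tissue and 0.126 in culture between repeated spots of the dimmest probes.

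Of the cGMP-inhibited enzymes, Pde3b showed the largest difference of the 10 genes, and in culture only. PDE3B is the adipocyte form known for carrying insulin's brake on lipolysis. Its RefSeq probe (NM_011055, A_51_P143431, chr7:110452250-110452309) was at 8.11 in KO cultures and 9.47 in WT cultures, and at 10.67 in KO tissue and 10.66 in WT tissue. Both tissue samples were equal within the spread of repeated spots and above both cultures, and the KO culture was lowest. The KO culture was 2.56-fold lower than the WT culture (log2 -1.36), and the scanner software's ratio was -1.55 with an error of 0.25. A second Pde3b probe, for the cDNA AK044183, lies close by in the opposite orientation. It was well above background in KO tissue alone, at 6.49, against 6.33 in WT tissue, and so says little of Pde3b itself.

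The lower Pde3b and Pde1b of the KO culture stood beside large differences in cell markers on the same array. All 12 of 12 adipocyte markers were at least 2-fold lower in KO cultures, with a median log2 ratio of -3.48 and mean levels of 9.52 in KO (range 7.28 to 13.36) and 13.34 in WT (10.14 to 16.15). Of 10 brown fat markers 6 were lower, with a median of -1.66. Macrophage markers were lower for 7 of 10, with a median of -1.79 and mean levels of 11.0 in KO (8.30 to 13.80) and 12.65 in WT (8.89 to 16.72), and all 10 were well above background in both. Smooth muscle markers were higher for 5 of 8, with a median of 1.40. In tissue, adipocyte markers had a median of 0.01 (0.77 without loess) and macrophage markers one of -0.03 (0.32 without loess), and there Pde3b and Pde1b had ratios of 0.01 and -0.08. Brown fat markers in tissue were lower for 4 of 9 and higher for 1, with a median of -0.50 (0.17 without loess). The KO over WT medians of the endothelial, lymphocyte, nerve and fibroblast lists were -0.31, -0.05, 0.00 and 0.13 in tissue and -0.07, -0.13, -0.34 and 0.11 in culture, and that of skeletal muscle in culture was -0.18. Without loess the endothelial median in tissue was 0.29. The part of adipocyte or macrophage content in the Pde3b and Pde1b values was not tested.

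Pde3a, the form best known from heart, platelets and vascular smooth muscle, gave different answers by probe. The probe for the cDNA AK052718 (A_52_P421881, chr6:141553813-141553872) was at 10.36 in KO tissue and 9.46 in WT tissue, and at 8.90 in KO cultures and 8.76 in WT cultures. KO tissue was the highest of the 4 samples, 1.86-fold above WT tissue (log2 0.90; the scanner software gave 0.99 with an error of 0.22). That value depended on the background step: with flagged spots kept in the background fit it was 0.32. The RefSeq probe for NM_018779 was close to background everywhere, at 6.47 in KO tissue and 6.71 in WT tissue, and at 6.63 in KO cultures and 6.66 in WT cultures. The third probe, for AK004638, was not well above background in any of the 4 channels. The tissue difference of Pde3a thus rests on 1 probe. On that array smooth muscle markers had a median of -0.56 (-0.01 without loess; 1 of 8 at least 2-fold lower) and 14 of 14 skeletal muscle markers were lower, with a median of -2.65 and mean levels of 10.19 in KO tissue and 12.71 in WT tissue. The part of muscle in the Pde3a value was not tested.

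The cAMP-specific PDE4 genes had 10 probes, none of which reached 2-fold between genotypes on either array. Pde4a's RefSeq probe (NM_019798) was at 12.50 in KO tissue and 12.85 in WT tissue, and at 10.56 in KO cultures and 10.24 in WT cultures, so its ratio was -0.35 in tissue and 0.32 in culture. The second Pde4a probe, for BC044786, was at 7.30 in KO tissue and was not well above background in WT tissue, at 6.85. As processed here, KO tissue was 1.36-fold higher on that probe, a ratio that rests on the undetected WT value and is no lower bound. The log2 ratio was however 1.74 in the scanner software's values and 0.03 with flagged spots kept in the background fit. With the spiked-in controls as the zero it was -0.4. In culture it was at 6.98 in KO and 6.87 in WT.

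Pde4b, the PDE4 gene prominent in immune cells, had 3 probes above background in all 4 channels. Their ratios lay between -0.15 and 0.16 in tissue and between -0.19 and 0.22 in culture, with both signs on each array. The one nearest the 3′ end, A_51_P512340, was at 10.39 in KO tissue and 10.54 in WT tissue, and at 9.43 in KO cultures and 9.20 in WT cultures. Another probe, A_52_P149801, which the files place far upstream of these, was too dim to be called above background in all 4 samples.

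Pde4d, which gives rise to many isoforms from separate starts, was also similar in both genotypes in tissue, and close to the lowest measurable level in culture. Its probe for AK081466 was at 10.28 in KO tissue and 10.32 in WT tissue, and at 6.51 in KO cultures and 6.58 in WT cultures. Its probe A_52_P582018 was at 9.78 in KO tissue and 10.14 in WT tissue, and at 7.04 in KO cultures and 6.80 in WT cultures. Of the upstream probes, A_52_P589745 was at 7.19 in KO tissue and 7.24 in WT tissue, and at 6.83 in KO cultures and 6.55 in WT cultures, and the probe for AK035860 was well above background in KO tissue alone, at 6.31. Thus 2 of the 4 Pde4d probes separated tissue from culture. As processed here, none separated KO from WT by more than 0.36 in tissue or 0.28 in culture. In culture the background offset shrinks such dim ratios. The scanner software gave 0.80 for A_52_P589745, 0.52 for A_52_P582018 and 0.08 for AK081466 there.

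Pde8a, a cAMP enzyme of very high affinity, was slightly lower in KO on both arrays, except in tissue without loess, where its log2 ratio was 0.27. It was at 10.59 in KO tissue and 10.83 in WT tissue, and at 9.41 in KO cultures and 9.76 in WT cultures, with log2 ratios of -0.24 and -0.35. Both lie within the 5th to 95th percentile of all kept probes, which was -0.73 to 0.55 in tissue and -0.87 to 0.71 in culture.

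Pde9a, the cGMP-specific enzyme of highest affinity, was present in tissue and at the edge of detection in culture. Its probe (NM_008804, chr17:29664138-29664197) was at 9.25 in KO tissue and 9.40 in WT tissue. In culture it was well above background in KO, at 6.56, and not in WT, at 6.17. As processed here, KO cultures were 1.32-fold higher, a ratio that rests on the undetected WT value and is no lower bound. The scanner software gave a log2 ratio of 1.90 with an error of 0.63, and with the spiked-in controls as the zero it was 0.18.

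**Figure D2:**
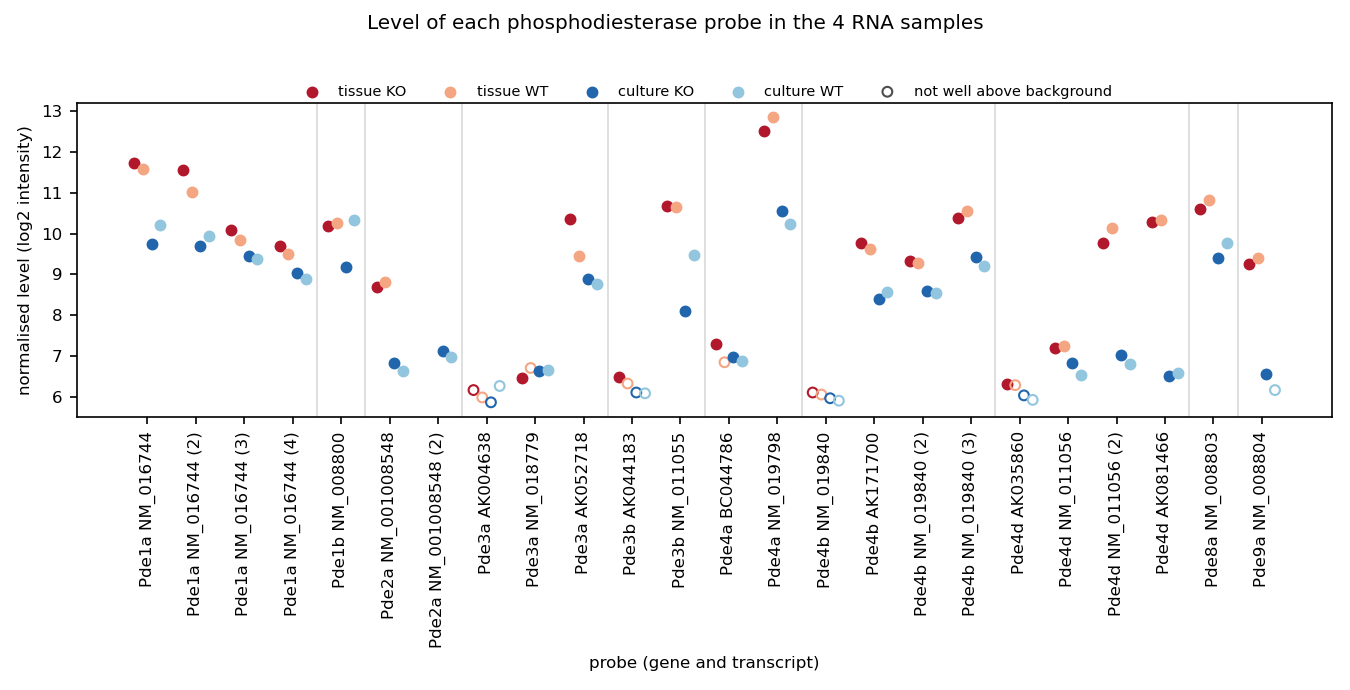
Normalised level (vertical axis, log2 intensity) of each phosphodiesterase probe in KO tissue, WT tissue, KO cultures and WT cultures, 1 spot per sample with no error bars, open circles where the spot was not well above background. The tissue samples sit above both cultures for most probes above background in every sample. Pde3b NM_011055 and Pde1b are the probes whose KO culture lies over 1 log2 unit below the WT culture. Heights should be read within a probe, since probes differ in how brightly they hybridise.

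Most probes of the 10 genes were measurable in both settings. Of the 24 probes 17 were well above background in all 4 channels (70.8%, against 56.7% of all 41174 probes), and 2 were in none (8.33%, against 20.5%). Of the 28 probes of the 14 other phosphodiesterase genes 8 were above background in all 4 channels, so that over both sets the count was 25 of 52 (48.1%). Above background in culture alone were 0 of the 24 probes, 3 of the 28 and 1850 of all 41174. In tissue alone the counts were 2, 9 and 3565. Those 2 of the 24, Pde3b AK044183 and Pde4d AK035860, were so in KO tissue only and close to the limit. Every one of the 10 genes had at least 1 probe well above background in both tissue samples and, except Pde9a in WT cultures, in both cultures.

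Levels of many of these probes were higher in tissue than in culture. Taking the mean of both channels of each array, 12 of the 21 probes kept were at least 2-fold higher in tissue and 0 at least 2-fold lower, where 16.6% of all 31825 kept probes were higher and 17.7% lower. The median difference was 1.12 on the log2 scale, against -0.01 over all probes. Among the 16 probes of the 10 genes well above background in all 4 channels with a tissue value, 11 were higher, where 19.4% of all such probes were. The 2 settings were on separate arrays with the dyes reversed, so this comparison rests on scaling the arrays to each other. With the WT channels alone 11 probes were higher and with the KO channels alone 11. With Feature Extraction's processed signals 12 were, where 28.4% of all kept probes were. Pde1a, Pde4b and Pde4d each gave more than 1 of the 12 probes. The other phosphodiesterase genes were counted as gene means, a unit unlike the probe counts above. Of the 11 kept, 0 were 2-fold or more higher in tissue and 1 was lower, with a median of 0.12.

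The downstream probes of Pde4d differed by 3.76 for AK081466 and 3.03 for A_52_P582018. Pde4a NM_019798 differed by 2.27 and Pde2a by 2.02. Pde9a differed by 2.96, a value that includes a WT culture not well above background. The order of these genes is not settled, since Feature Extraction's signals gave 5.90 and 4.25 for the Pde4d probes, 2.21 for Pde4a, 3.52 for Pde2a and 5.57 for Pde9a. Pde3b had a mean difference of 1.87, made of 2.55 between the KO samples and 1.19 between the WT samples, so the lower KO culture widened it. Pde1b averaged 0.47, with 1.00 between the KO samples and -0.06 between the WT samples, so that WT tissue and WT culture were alike.

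Probes of the same gene did not all show the same excess. In Pde1a the 2 probes nearest the 3′ end had differences of 1.69 and 1.46, and the 2 further upstream 0.55 and 0.63. In Pde4d the upstream probe A_52_P589745 had 0.52, against 3.03 and 3.76 for the downstream ones, and Feature Extraction's signals gave it 1.5. The Pde4d probe for AK035860, not well above background in 3 of the 4 samples, gives no exact difference. All 4 Pde4d probes were near the lowest measurable level in culture, where the background offset shrinks differences. Pde1a had levels well above that limit with all 4 probes.

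**Figure D3:**
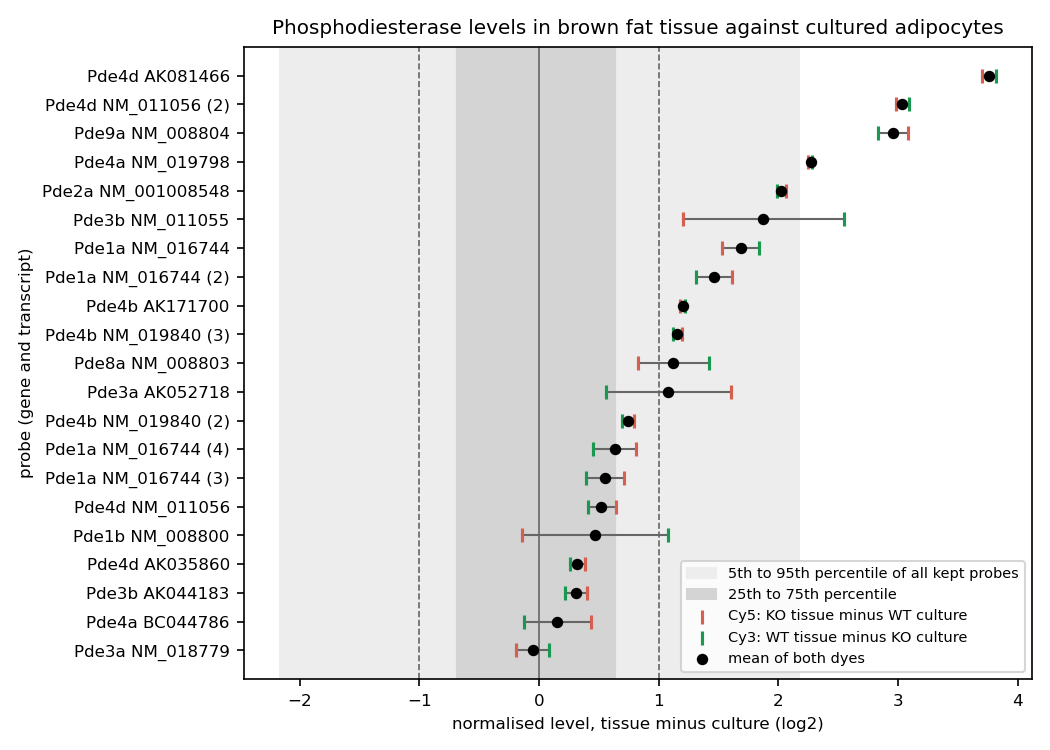
Tissue minus culture difference in normalised level (horizontal axis, log2) of the 21 kept phosphodiesterase probes (rows), with the mean of both dyes as a black point and the 2 same-dye differences as ticks. Grey bands hold the 5th to 95th and the 25th to 75th percentile of all kept probes and dashed lines mark 2-fold. The probes run from 3.76 for Pde4d AK081466 to -0.05 for Pde3a NM_018779, and the ticks of Pde3b NM_011055, Pde1b and Pde3a AK052718 lie furthest apart.

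The makeup of the samples differed between tissue and culture as well. Endothelial markers were higher in tissue for 9 of 9 genes, with a median difference of 5.22 and mean levels of 11.55 in KO tissue and 11.82 in WT tissue, against 6.88 in KO cultures and 6.92 in WT cultures. Skeletal muscle markers were higher for 14 of 14, with a median of 4.12, and adipocyte markers for 11 of 12, with a median of 3.72. The adipocyte median averages both genotypes, which were unlike. Mean adipocyte marker levels were 15.12 in KO tissue and 9.52 in KO cultures, but 14.89 in WT tissue and 13.34 in WT cultures. Macrophage markers were lower in tissue for 9 of 10, with a median of -2.61. The part of these cell types in the phosphodiesterase differences was not tested.

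As processed here, none of the other phosphodiesterase genes reached 2-fold between genotypes as a gene mean. Of the 14 on the array, 11 were kept in tissue, with a median log2 ratio of 0.02 (-0.89 to 0.43), and 10 in culture, with a median of 0.04 (-0.55 to 0.35). At the same gene level, 0.968% of all genes passed 2-fold upwards and 2.47% downwards in tissue, and 2.15% upwards and 3.81% downwards in culture. Pde7b, a cAMP-specific gene, was at -0.89 in tissue. Its probe A_51_P333712, the one above background in all 4 samples, was at 6.85 in KO tissue and 8.09 in WT tissue, and at 6.86 in KO cultures and 7.53 in WT cultures. In tissue this probe was 2.35-fold lower in KO, a 2-fold call that 2.44% of all kept probes met.

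Pde5a, the cGMP-specific target of sildenafil, was at 7.68 in KO tissue and 7.51 in WT tissue, and at 6.63 in KO cultures and 6.69 in WT cultures. As processed here, neither genotype difference exceeded 0.17. The scanner software's ratios were 0.56 in tissue, with an error of 0.24, and -0.26 in culture, with an error of 0.36. Pde8b had 1 probe (A_51_P125338) at 8.49 in KO cultures and 7.62 in WT cultures that was not well above background in tissue. Pde6d, a prenyl-binding protein named for its place in the retinal enzyme, was at 10.87 in KO tissue and 10.81 in WT tissue, and at 12.83 in KO cultures and 12.48 in WT cultures. Gene means of Pde4c, Pde6g, Pde7a and Pde10a were 0.43, -0.63, 0.02 and -0.03 in tissue, and -0.13, 0.04, -0.36 and 0.16 in culture. Probes of Pde1c, Pde6h and Pde11a were near background where kept, the photoreceptor genes Pde6a and Pde6b were not well above background in any channel, and Pde6c was flagged in tissue and not above background in culture.

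Genes that make, sense or relay cAMP and cGMP were counted in the same way. Of 25 such genes kept in tissue, 0 were at least 2-fold lower in KO, where 2.47% of all genes were, with a median of -0.16. In culture 2 of 25 were higher and 4 lower, where 2.15% and 3.81% of all genes were, with a median of -0.10. Prkg1, the gene knocked out, was among the 4, at -1.03. The lowest was Prkar2b, the regulatory subunit of protein kinase A abundant in fat, at -2.13, followed by the adenylyl cyclases Adcy7 at -1.44 and Adcy5 at -1.43. Gucy1b1, a subunit of the nitric oxide receptor that makes cGMP, was at 1.36. Of 12 genes for anchors, activators and partners of phosphodiesterase proteins, among them the 3 calmodulin genes, none passed 2-fold on either array, with medians of -0.08 in tissue and -0.15 in culture.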

How the data were processed

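Spot intensity in the deposited scanner files (mean signal and median local background of both dyes) comes, per the file headers, from Agilent Feature Extraction 9.5.1.1 with protocol GE2-v5_95_Feb07. The deposited files also give processed intensity and a log10 ratio of red over green with its error, which the authors' deposited value table repeats as log10 ratios of KO over WT on both arrays (within 0.0165 on the log2 scale, with 7623 gene spots empty for tissue and 6968 for culture and medians of 0.09 and 0.017). A second copy of each array differed by at most 0.498% and was not used further. No source used here states the build of the probes' coordinates.

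With limma 3.58.1 in R 4.3.3, spots flagged as non-uniform or as population outliers in either dye (1215 of 43379 gene spots in tissue, 203 in culture) were left out, background was corrected by normexp with offset 50, and each array was normalised by loess with its 1639 control spots at weight 0. Log2 ratios are KO over WT. Levels are log2 intensities after quantile scaling of mean brightness between the arrays. Probes clearly above background (Feature Extraction's flag) in 1 channel or both were kept, and called at 2-fold. For a probe dim in 1 channel, the ratio uses the undetected value of that channel, so it is neither exact nor a lower bound. Such ratios are open to dye bias and hold only for the zero that loess sets. Array number limits precision. All probes of the 10 genes are reported. Of the lists for other phosphodiesterases, cyclic nucleotide signalling, partners and 9 cell types, members past 2-fold could be named (at most 4 a list and array) and all other phosphodiesterase genes. Members and lists were chosen with earlier results of these data known. Promoter windows are from RefSeq. One gene of the signalling list is not reported here.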

Additional observations from a re-analysis of the deposited data

How the results depend on the processing

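No paired analysis was possible because each comparison has 1 array, and for the same reason no replicate could be left out. Pde3b NM_011055 and Pde1b stayed at least 2-fold lower in KO cultures under all alternatives run, Pde3b between -1.36 and -1.74 and Pde1b between -1.14 and -1.56, and no called value changed sign. The number of probes at least 2-fold higher in KO tissue, 0 as reported, was 1 with Feature Extraction's ratios and 1 with the authors' value table (the dim Pde4a BC044786 probe, at 1.74 and 1.73), and 2 with median centring instead of loess (Pde3a AK052718 at 1.35 and Pde1a A_51_P327016 at 1.09), where 10.4%, 10.3% and 5.14% of all probes were, against 0.926% as reported. In KO cultures it was 1 with either of the first 2 (Pde9a, 1.90), where 4.83% and 4.81% of all probes were. Centring on the spiked-in controls shifted every ratio by 0.84 in tissue and 0.22 in culture, so that 4 tissue probes counted as lower, where 28.3% of all probes did. The medians over the phosphodiesterase probes were then -0.84 and -0.13, against -0.83 and -0.24 over all probes, and without loess 0.39 and -0.20, against 0.25 and -0.26, so that directions of small ratios, such as those of Pde8a and Pde1a, are relative to the other genes of the array. Keeping flagged spots in the background fit moved Pde3a AK052718 in tissue to 0.32 from the 0.90 reported. The cause of these moves was not tested. The count of 12 probes higher in tissue than in culture was 12, 11 and 11 under alternatives chosen after seeing the data (Feature Extraction signals, WT channels and KO channels), where 28.4%, 16.8% and 17.9% of all probes were, against 16.6%. Of the single probe values under alternatives that recompute the ratio, 117 moved by less than the spread of repeated spots and 129 by more. Signal over background limits the dim probes of Pde3a, Pde3b, Pde4a, Pde4b, Pde4d and Pde9a.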

Other observations

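Pde4dip, myomegalin, a scaffold that binds PDE4D, was named after its values were seen. Its probe A_51_P489488 was at 14.15 in KO tissue and 14.63 in WT tissue, and at 7.55 in KO cultures and 9.51 in WT cultures, which is 3.87-fold lower in KO cultures. The other probes of the gene kept in culture had log2 ratios between -0.16 and 0.16 there. Averaged over its kept probes the gene was at -0.35 in culture, short of 2-fold, so the probe and the gene mean give different pictures.

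The Pde3b probe for AK044183 has the opposite orientation to the neighbouring RefSeq probe of Pde3b, while 99.0% of 14480 probes with a RefSeq transcript run with the strand of their gene. In culture it was too dim to be kept, and so the Pde3b values of the cultures come from the RefSeq probe alone.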
